A study of Homo sapiens with 13 samples.

Results

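WNT3A, the gene of a Wnt ligand, and 9 genes that Wnt signalling is known to regulate (SP5, AXIN2, LEF1, NKD1, LGR5, RNF43, ZNRF3, DKK1 and TCF7) were followed in HEK293T cells on 13 Agilent 2-colour arrays, each of which set the total RNA of treated cells against that of control cells. The members were the array's probes that carry 1 of these 10 gene symbols, 14 of 42405 probes in all. All 14 passed the filter on dim probes, as did 34619 of the array's probes. HEK293T is a human embryonic kidney line with the SV40 large T antigen, so every sample came from 1 line. Cells received 1 µM UNC0638, which inhibits the histone H3 lysine 9 methyltransferases G9a (encoded by EHMT2) and GLP (encoded by EHMT1), or DMSO for 48 h, in 5 biological replicates. A dye swap was made for replicates 1 and 2, and the other 3 had the UNC0638 sample in Cy5, which made 7 arrays. An siRNA against WIZ, a zinc finger partner of G9a and GLP, was set against a control siRNA at 72 h in 2 biological replicates with a dye swap for each (4 arrays). An siRNA against G9a was set against control siRNA at the same time in 2 biological replicates with no swap and the knockdown in Cy5 (2 arrays). The cells were grown in DMEM with fetal bovine serum, and both siRNAs were delivered with DharmaFECT 4. From the labels it is not known if the knockdowns had control RNA in common. The comparisons ask which genes respond to loss of the enzymes' activity, of G9a itself and of WIZ.

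In canonical Wnt signalling a secreted ligand such as WNT3A binds a Frizzled receptor together with LRP5 or LRP6, which stabilises β-catenin. β-catenin then enters the nucleus and acts through DNA-binding factors of the TCF/LEF family, to which LEF1 and TCF7 belong. Many genes it switches on act back on the pathway: AXIN2 and NKD1 dampen it inside the cell, DKK1 blocks the co-receptors from outside, RNF43 and ZNRF3 remove Frizzled from the cell surface, LGR5 counters RNF43 and ZNRF3, and SP5 is a transcription factor that restrains the response. The 293 line and its derivatives are widely used to read out this pathway, since added Wnt ligand readily turns it on in them.

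The promoters of 3 genes are shown. WNT3A was lower under each treatment on its brighter probe, and SP5 and DKK1 differed between treatments. TCF7 also differed between treatments, on its dimmer probe, but its promoters are not printed. The lines give the 250 bases before the start site, 5′ to 3′ on the plus strand, from RefSeq (GRCh38.p14). Capitals mark matches to a TCF/LEF heptamer, which is CTTTG followed by AA, AT, TA or TT, searched on both strands. No matches overlap in these promoters.
WNT3A, chr1:228006748-228006997: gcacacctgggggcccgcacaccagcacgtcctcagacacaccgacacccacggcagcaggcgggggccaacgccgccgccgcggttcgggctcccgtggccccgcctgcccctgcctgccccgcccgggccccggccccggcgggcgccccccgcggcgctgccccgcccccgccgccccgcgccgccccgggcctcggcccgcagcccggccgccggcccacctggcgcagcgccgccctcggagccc
SP5, chr2:170715087-170715336: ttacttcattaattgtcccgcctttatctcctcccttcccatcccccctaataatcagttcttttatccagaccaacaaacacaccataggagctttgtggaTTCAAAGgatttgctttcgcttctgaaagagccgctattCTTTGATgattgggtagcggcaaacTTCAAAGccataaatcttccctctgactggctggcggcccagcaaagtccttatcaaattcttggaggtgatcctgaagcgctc
DKK1, chr10:52314031-52314280: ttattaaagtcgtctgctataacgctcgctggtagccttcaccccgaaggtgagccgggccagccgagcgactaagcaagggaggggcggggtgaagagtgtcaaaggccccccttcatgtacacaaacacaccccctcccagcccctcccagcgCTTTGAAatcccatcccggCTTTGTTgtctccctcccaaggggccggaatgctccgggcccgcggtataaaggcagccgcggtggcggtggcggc

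The SP5 window held 3 matches, which start 148, 109 and 84 bases before the start site. The DKK1 window held 2, at 95 and 76 bases, and the WNT3A window none. The WNT3A window was 86% G or C with 38 CpG dinucleotides, the SP5 window 45.6% with 6, and the DKK1 window 62.8% with 18. The median over all 35116 promoters of the RefSeq table was 58% with 11 CpG dinucleotides. At least 1 match lay in 12% of those promoters, at least 2 in 1.21% and at least 3 in 0.122%. In all, 6 member genes with 8 promoters matched the table, and 1 further member window held a match, that of a TCF7 promoter at 50 bases. A match describes the letters in the window and not a bound site.

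The probes are 60-base oligos, placed by the files on build 37.1. The brighter WNT3A probe (probe 1, A_23_P385690) lies on chromosome 1 at 228248893 to 228248952, and its last base is 9 bases from the end of the gene's span. The SP5 probe lies on chromosome 2 at 171574290 to 171574349, 148 bases from the end of its gene. Of the 11 member probes with a position, AXIN2 probe 2 lies farthest inside its gene, 29703 bases from the end of a span of 112499, on chromosome 17 at 63554388 to 63554447. WNT3A probe 2, RNF43 and TCF7 probe 2 have neither sequence nor position in the files, so the transcript form they read was not examined. Probes of 1 gene are numbered from the brighter to the dimmer.

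Values are given as the log2 of treated over control RNA, so a value below 0 means less RNA after treatment. An array's ratio is the mean of the probe's spots, and a swapped pair of arrays counts as 1 replicate. Adjusted p-values come from 1 limma fit over the 9 biological replicates with Benjamini-Hochberg adjustment over all 34619 probes, and a probe is called where its adjusted p is below 0.05. With 2 replicates per siRNA the spread is borrowed in large part from the UNC0638 replicates. The targeted transcripts were lower under their own siRNA, with WIZ at 23.1% and EHMT2 at 31.6% of control. All 8 epithelial, renal and neuronal marker genes checked for HEK293T were well above background in the control RNA of each array, as were 5 of 10 marker genes of other cell types. Each of those 10 was well above background on at least 1 array. The arrays fell into 2 sets by the spread of their Cy3 background, with UNC0638 replicates 1 and 2 and WIZ siRNA in set 1 (8 arrays) and UNC0638 replicates 3 to 5 and G9a siRNA in set 2 (5 arrays). Over all tested probes the ratios of UNC0638 replicate 3 had a correlation of 0.867 with G9a siRNA replicate 1, of 0.829 with replicate 2 of that siRNA and of 0.641 with UNC0638 replicate 4, which correlated at 0.468 with each G9a siRNA replicate. The other pairs of UNC0638 replicates lay between 0.04 and 0.44.

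The members were chosen with earlier results of these data known, so a share above that of all probes is no test of the set. Of the 14 member probes, 3 were called under UNC0638 (WNT3A probe 1 and SP5 lower, RNF43 higher), against 3.24% of all probes tested. Under WIZ siRNA 1 member probe was called (WNT3A probe 1, lower), against 0.508% of all probes. Under G9a siRNA 8 were called, against 33.8% of all probes. Of those 8, 6 were lower, a direction called for 18.8% of all probes. A call under G9a siRNA thus marks out a member less than a call elsewhere. The 8 probes stand for 6 genes, with both TCF7 probes lower and the AXIN2 probes called in opposite directions. AXIN2 probe 2, among the lower ones, was not well above background in either channel of either array. The median ratio of the 14 probes was -0.04 under UNC0638, -0.02 under WIZ siRNA and -0.17 under G9a siRNA, where that of all tested probes was -0.01, 0.02 and -0.01. Without UNC0638 replicate 3 the counts were 3, 1 and 8. A fit without 1 of the 2 G9a siRNA replicates rests on a lone replicate. Without replicate 2 no probe of the whole array was called under that siRNA, so a call lost there does not mark out a member. Under WIZ siRNA the count was 0 without either WIZ siRNA replicate or UNC0638 replicate 1.

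**Figure D1:**
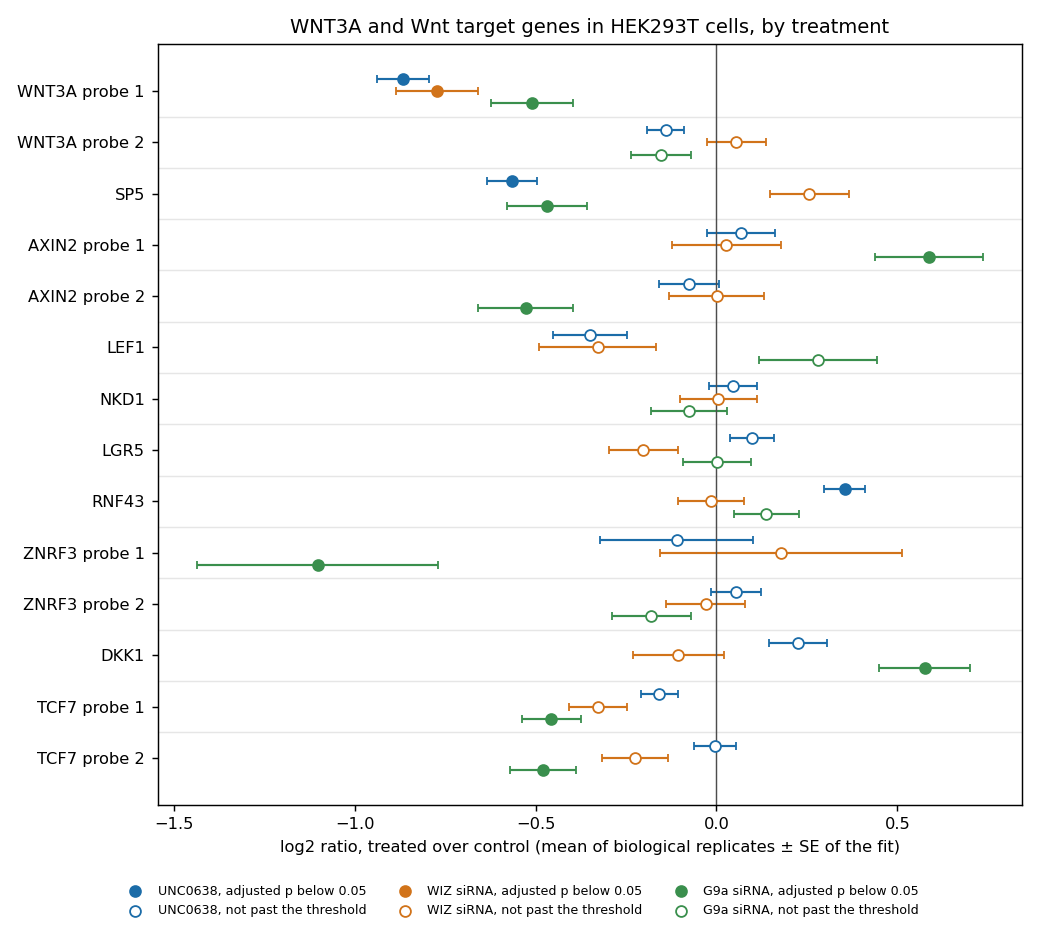
Mean log2 ratio (treated over control, x axis) of the 14 member probes (y axis) under UNC0638 (n = 5), WIZ siRNA (n = 2) and G9a siRNA (n = 2), with bars for the SE of the fit and filled points for an adjusted p below 0.05. WNT3A probe 1 is the member probe with a filled point in each treatment, while SP5 lies at -0.56 and -0.47 under UNC0638 and G9a siRNA and at 0.26 under WIZ siRNA.

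WNT3A, the ligand gene, fell under each treatment on probe 1. Under UNC0638 the ratios were -0.79 and -0.78 for the 2 arrays of replicate 1, -0.59 and -0.71 for those of replicate 2, and -0.96, -1.02 and -0.91 for replicates 3 to 5. The 7 arrays were all lower, and the mean was -0.87 ± 0.15 (SD, n = 5; SE 0.07, adjusted p = 0.000367), or 54.9% of control. Within array set 1 it was -0.72 (adjusted p = 0.0177) and within set 2 -0.96 (adjusted p = 0.00201), and it passed under each of the 23 alternatives tried. Under WIZ siRNA the arrays gave -0.97 and -0.74 for replicate 1 and -0.79 and -0.59 for replicate 2. Both dye orientations of each replicate were thus lower, with a mean of -0.77 ± 0.12 (SD, n = 2; SE 0.11, adjusted p = 0.0255), or 58.6% of control. That call was lost without UNC0638 replicate 1 (adjusted p = 0.0501), without WIZ siRNA replicate 1 (adjusted p = 0.662) or without replicate 2 (adjusted p = 0.409), where the mean stayed between -0.85 and -0.69. It was also lost with median centring in place of loess (-0.80, adjusted p = 0.056) and with the authors' deposited log2 ratio (-0.82, adjusted p = 0.147). Under G9a siRNA the arrays gave -0.33 and -0.69, with a mean of -0.51 ± 0.26 (SD, n = 2; SE 0.11, adjusted p = 0.00879), or 70.3% of control. This call was lost without G9a siRNA replicate 2, which left -0.33 (adjusted p = 0.203), and with the array set as a block (-0.39, adjusted p = 0.0567).

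The 2 spots of WNT3A probe 1 on an array lay close together, with ratios of -0.97 and -0.96 on the array of UNC0638 replicate 3 and of -0.42 and -0.23 on that of G9a siRNA replicate 1. Both channels were well above background on all 13 arrays. Differences between treatments did not pass the threshold on this probe. The G9a siRNA mean was 0.36 above that of UNC0638 (95% interval 0.06 to 0.66, adjusted p = 0.105) and 0.26 above that of WIZ siRNA (-0.10 to 0.62, adjusted p = 0.281). The WIZ siRNA mean was 0.09 above that of UNC0638 (-0.21 to 0.40, adjusted p = 0.843).

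WNT3A probe 2, which carries the same accession in the files, did not follow probe 1. Its ratio under UNC0638 lay between -0.22 and -0.02 on 7 arrays (mean -0.14, SE 0.05, adjusted p = 0.184), under WIZ siRNA between -0.11 and 0.15 on 4 arrays (mean 0.05, adjusted p = 1), and under G9a siRNA at -0.04 and -0.27 (adjusted p = 0.185). None of these means was called. In the G9a siRNA samples the probe was not well above background in the treated RNA of either array. It was well above background in the control RNA of both. The G9a siRNA mean was -0.15 (interval -0.34 to 0.03), so no lower bound on the fold is read from it. Signals were dim throughout set 2, with Cy3 intensities of 96.5 to 142 over backgrounds of 27.5 to 31. For the treated RNA of UNC0638 replicates 3 and 4 it was not well above background either. Which of the 2 probes better reads the WNT3A transcript was not tested, and the fall of WNT3A rests on probe 1.

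**Figure D2:**
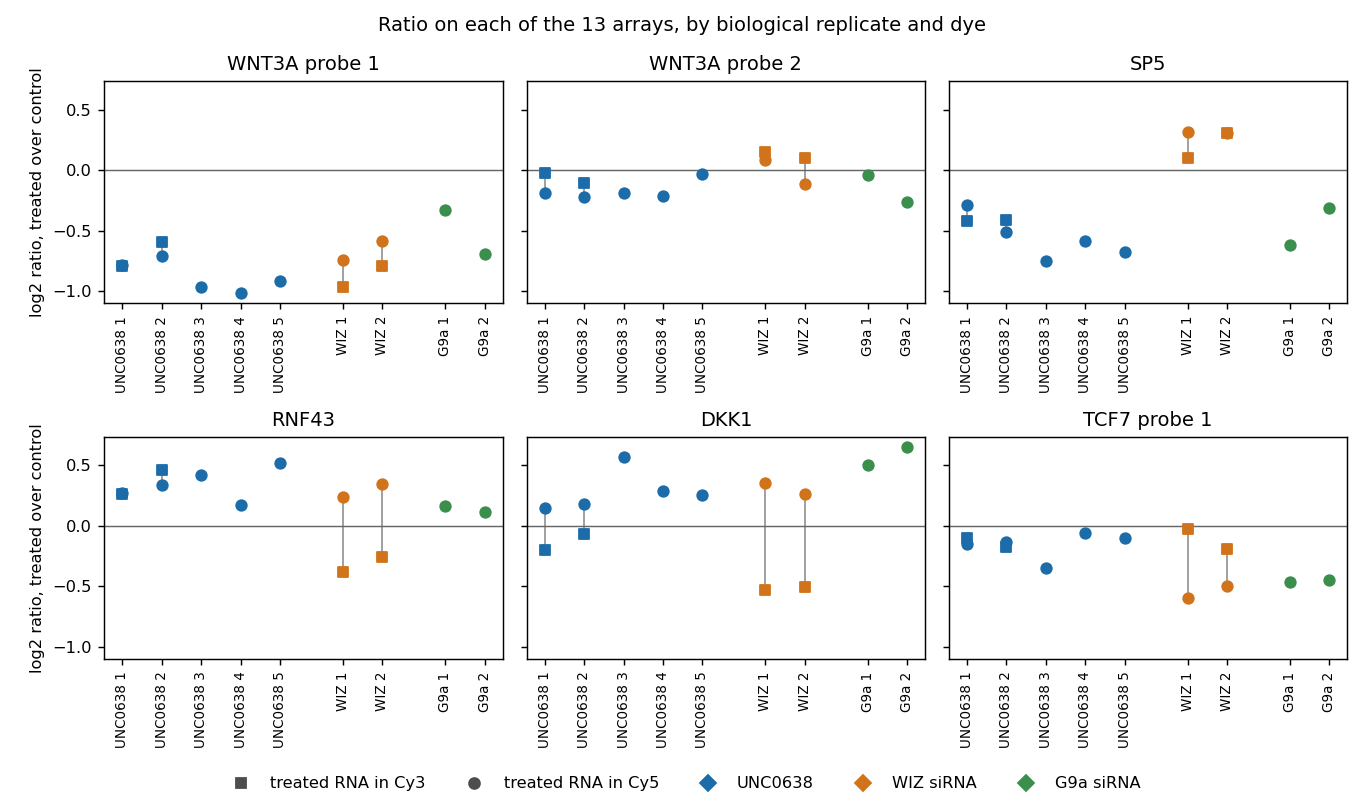
Log2 ratio (treated over control, y axis) on each of the 13 arrays for 6 member probes, by biological replicate (x axis). Squares have the treated RNA in Cy3 and circles in Cy5, and a line joins the arrays of a swapped pair. WNT3A probe 1 lies below 0 on all 13 arrays, SP5 lies above 0 on the 4 WIZ siRNA arrays and below 0 on the other 9, and RNF43 and DKK1 change sign with the dye in both WIZ siRNA replicates.

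SP5, a Wnt-induced transcription factor gene, fell under UNC0638 and G9a siRNA and was on the other side of 0 under WIZ siRNA. Under UNC0638 its ratios were -0.42 and -0.29 for replicate 1, -0.41 and -0.51 for replicate 2, and -0.75, -0.58 and -0.68 for replicates 3 to 5. The mean was -0.56 ± 0.16 (SD, n = 5; SE 0.07, adjusted p = 0.00275), or 67.6% of control, lower on 7 of 7 arrays. Within array set 1 it was -0.41 and was not called (adjusted p = 0.125), and within set 2 it was -0.67 (adjusted p = 0.00357). Under G9a siRNA the 2 arrays gave -0.62 and -0.32, with a mean of -0.47 ± 0.22 (SD, n = 2; SE 0.11, adjusted p = 0.0108), or 72.3% of control. The treated RNA was well above background on 1 of those 2 arrays, and the call was lost without G9a siRNA replicate 1 (-0.32, adjusted p = 0.158), without replicate 2 (-0.62, adjusted p = 0.109) and with the array set as a block (-0.34, adjusted p = 0.0655). Under WIZ siRNA the ratios were 0.10 and 0.32 for replicate 1 and 0.31 in both orientations of replicate 2. The 4 arrays were higher than control, but the mean of 0.26 ± 0.07 (SD, n = 2; SE 0.11) was not called (adjusted p = 0.59).

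SP5 is the member called in both differences that involve WIZ siRNA. No UNC0638 or G9a siRNA array overlapped the 4 WIZ siRNA arrays, but how many of all probes do the same was not counted. The WIZ siRNA mean was 0.82 above that of UNC0638 (95% interval 0.53 to 1.11, adjusted p = 0.0278), a call that 0.705% of all probes reached in that comparison. The G9a siRNA mean was 0.73 below that of WIZ siRNA (fitted difference -0.73, interval -1.07 to -0.38, adjusted p = 0.0165), where 20.4% of all probes were called. The G9a siRNA and UNC0638 means differed by 0.10 (interval -0.20 to 0.39, adjusted p = 0.664). Within array set 1, which holds WIZ siRNA and UNC0638 replicates 1 and 2, the difference of WIZ siRNA from UNC0638 was 0.66 and was not called (adjusted p = 0.104). It was also lost without UNC0638 replicate 2 (0.85, adjusted p = 0.0594) or 4 (0.82, adjusted p = 0.072) and without WIZ siRNA replicate 1 (0.87, adjusted p = 0.269) or 2 (0.77, adjusted p = 0.434), with the authors' deposited log2 ratio and with the array set as a block. G9a siRNA and WIZ siRNA share no array set, and the call on their difference was lost with the array set as a block. Over all probes that block left 2 higher and 0 lower in this comparison, against 3063 and 3989. The call was also lost without any 1 of their 4 replicates, at -0.88 to -0.57, where a lone replicate stands for a treatment. Without a WIZ siRNA replicate or G9a siRNA replicate 2 nearly all calls of the array were lost, so those losses do not mark out SP5. The UNC0638 and siRNA samples also differ in time, 48 h against 72 h, which cannot be told apart from the treatments.

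The TCF/LEF factor genes differed from each other. LEF1 was lower than control on 7 of 7 UNC0638 arrays and on 4 of 4 WIZ siRNA arrays, yet neither mean was called. Its UNC0638 replicates ranged from -0.80 to -0.05 (mean -0.35 ± 0.32 SD, n = 5; adjusted p = 0.112), with replicate 3 nearest to 0. Its WIZ siRNA ratios were -0.61 and -0.51 where Cy3 held the treated RNA and -0.08 and -0.12 where Cy5 did (mean -0.33, SE 0.16, adjusted p = 0.7). On the G9a siRNA arrays LEF1 lay at 0.23 and 0.33 (adjusted p = 0.217). The difference between G9a siRNA and UNC0638, 0.63 (interval 0.20 to 1.06), did not pass (adjusted p = 0.0599), but did without UNC0638 replicate 3 (0.70, adjusted p = 0.016) or replicate 5 (0.52, adjusted p = 0.046). Over all probes the calls of this comparison, 2028 higher and 2304 lower, rose too. They were 4357 and 5566 without replicate 3 and 2235 and 2759 without replicate 5, so these passes do not mark out LEF1.

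TCF7 fell under G9a siRNA on both of its probes. Probe 1, which has 10 spots on each array with a within-array SD of 0.04 to 0.11, gave -0.47 and -0.45 (mean -0.46, SE 0.08, adjusted p = 0.0043). Probe 2 gave -0.48 on both arrays (SE 0.09, adjusted p = 0.00516), with the treated RNA well above background on 1 of the 2. The probes thus left 72.9% and 71.7% of control, and both calls were lost without G9a siRNA replicate 2 (adjusted p = 0.109 and 0.115) at means of -0.47 and -0.48. Under UNC0638 probe 1 was at -0.16 (SE 0.05, adjusted p = 0.14) and lower on 7 of 7 arrays, while probe 2 was at 0.00 (adjusted p = 0.981). Under WIZ siRNA probe 1 was at -0.33 (SE 0.08, adjusted p = 0.169) and probe 2 at -0.22 (adjusted p = 0.549). With a term for the dye, fitted on the 13 arrays and not the 9 replicates, probe 1 passed there (-0.33, adjusted p = 0.0173). Over all probes that fit called 316 higher and 888 lower under WIZ siRNA, against 22 and 154, so the pass marks out TCF7 less. Its treated RNA read -0.02 and -0.20 in Cy3 and -0.60 and -0.50 in Cy5, so the dye moved with the size of the ratio. The difference between G9a siRNA and UNC0638 was called on probe 2 (-0.48, interval -0.72 to -0.23, adjusted p = 0.0287; 12.5% of all probes) and not on probe 1 (-0.30, interval -0.51 to -0.08, adjusted p = 0.0688). On probe 2 that call was lost with the dye term (-0.47, adjusted p = 0.0975), against the UNC0638 replicates of the same array set (-0.54, adjusted p = 0.0519) and with the array set as a block. It was also lost without UNC0638 replicate 1 or 4, either WIZ siRNA replicate or either G9a siRNA replicate, at -0.53 to -0.44. Over all probes this comparison called 2028 higher and 2304 lower, but 121 and 167 with the array set as a block or within set 2. It called 352 and 434 without UNC0638 replicate 4, and nearly none without a WIZ siRNA replicate or G9a siRNA replicate 2. Those losses thus do not mark out TCF7 probe 2.

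Among the genes that act back on the pathway, RNF43, which encodes a ubiquitin ligase for Frizzled receptors, rose under UNC0638. Its ratios were 0.26 and 0.27 for replicate 1, 0.46 and 0.34 for replicate 2, and 0.42, 0.17 and 0.51 for replicates 3 to 5. It was thus higher on 7 of 7 arrays, with a mean of 0.35 ± 0.13 (SD, n = 5; SE 0.06, adjusted p = 0.0107), or 128% of control. The within-set means were 0.33 in set 1 (adjusted p = 0.29) and 0.37 in set 2 (adjusted p = 0.0244), and a fit of UNC0638 on its own replicates gave an adjusted p of 0.0657. With the authors' deposited log2 ratio the adjusted p was 0.0539. Under WIZ siRNA RNF43 read -0.38 and -0.26 on the Cy3 arrays and 0.24 and 0.34 on the Cy5 arrays, so the mean of -0.02 is the average of opposed values. Under G9a siRNA it read 0.16 and 0.12 (adjusted p = 0.276). Its differences between treatments were not called, with -0.37 for WIZ siRNA minus UNC0638 (interval -0.61 to -0.13, adjusted p = 0.222).

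ZNRF3, the close relative of RNF43, was read by 2 probes that disagreed. Probe 1 fell to -0.97 and -1.23 on the G9a siRNA arrays (mean -1.10, SE 0.33, adjusted p = 0.031). On the same arrays probe 2 read -0.31 and -0.05 and was not called (mean -0.18, SE 0.11, adjusted p = 0.238). The probes lie 3189 bases apart at their nearest ends on chromosome 22, and the gene reaches 3804 bases beyond probe 1. Probe 1 also spread widely under UNC0638, from -1.12 in replicate 3 to 0.82 in replicate 5 (mean -0.11 ± 0.70 SD, n = 5), against -0.15 to 0.27 for probe 2. The call on probe 1 was lost without either G9a siRNA replicate (-1.23, adjusted p = 0.119, and -0.97, adjusted p = 0.271), with the dye term (-0.93, adjusted p = 0.0691) and with the array set as a block (-0.99, adjusted p = 0.139).

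DKK1, the secreted inhibitor, rose under G9a siRNA. The arrays read 0.50 and 0.65, a mean of 0.58 ± 0.11 (SD, n = 2; SE 0.13, adjusted p = 0.00841), or 149% of control. Under UNC0638 it read -0.20 and 0.14 for replicate 1, -0.06 and 0.18 for replicate 2, and 0.57, 0.29 and 0.25 for replicates 3 to 5. The 5 UNC0638 arrays with treated RNA in Cy5 were higher than control and the 2 with it in Cy3 lower, with a mean of 0.23 that was not called (SE 0.08, adjusted p = 0.17). Within array set 1 that mean was 0.01 and within set 2 it was 0.37 (adjusted p = 0.0235). Under WIZ siRNA the Cy3 arrays read -0.53 and -0.51 and the Cy5 arrays 0.35 and 0.26 (mean -0.11, adjusted p = 1). On every array of the series, therefore, DKK1 was higher where the treated RNA was in Cy5 and lower where it was in Cy3, and both G9a siRNA arrays had it in Cy5. With a term for the dye the G9a siRNA mean was 0.28 (adjusted p = 0.143), and without G9a siRNA replicate 2 it was 0.50 (adjusted p = 0.155). The call was lost with median centring too. The difference of G9a siRNA from WIZ siRNA was 0.68 (interval 0.28 to 1.08, adjusted p = 0.0294), and with the dye term it was 0.39 (adjusted p = 0.0925). The call on that difference was lost as well with median centring, with the authors' deposited log2 ratio and with the array set as a block. It was also lost without any 1 of the 4 siRNA replicates, at 0.60 to 0.76. Nearly all calls of the array in this comparison were lost with that block, without a WIZ siRNA replicate or without G9a siRNA replicate 2. Those losses thus do not mark out DKK1.

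AXIN2, which encodes a scaffold of the β-catenin destruction complex, had 2 probes as well. Probe 1 rose under G9a siRNA, with 0.35 and 0.83 on the arrays (mean 0.59 ± 0.34 SD, n = 2; SE 0.15, adjusted p = 0.0156), or 150.2% of control. Probe 2 was at -0.53 on both arrays, but was not well above background in either channel there, so no fold is read from it. The call on probe 1 was lost without G9a siRNA replicate 2 (0.35, adjusted p = 0.298), with median centring in place of loess (0.36, adjusted p = 0.0898) and with the array set as a block (0.54, adjusted p = 0.0816). Under UNC0638 probe 1 ranged from -0.28 to 0.32 over the replicates (mean 0.07, SE 0.09, adjusted p = 0.728). Under WIZ siRNA it read 0.19 and 0.31 in Cy3 and -0.25 and -0.13 in Cy5, with a mean of 0.03 (95% interval -0.31 to 0.37).

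NKD1, an inhibitor of Dishevelled, and LGR5, an R-spondin receptor, were called under no treatment. The mean of NKD1 was 0.05 under UNC0638 (interval -0.10 to 0.20), 0.01 under WIZ siRNA (-0.23 to 0.24) and -0.08 under G9a siRNA (-0.31 to 0.16). Its WIZ siRNA arrays read 0.58 and 0.26 in Cy3 and -0.43 and -0.38 in Cy5, so they too were opposed by dye. LGR5 was dim, with neither channel well above background on the 5 arrays of set 2, so no fold is given for G9a siRNA. Under WIZ siRNA its mean was -0.20 (SE 0.10, adjusted p = 0.665), and under UNC0638 it was 0.15 over the 2 replicates where it was well above background (set 1).

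Over the 14 member probes, 9 had opposite signs in the 2 dye orientations under WIZ siRNA and 8 under UNC0638 replicates 1 and 2. The share of all probes that do so was not counted. WNT3A probe 1, SP5, LEF1 and TCF7 probe 1 kept 1 sign in both treatments. G9a siRNA was not swapped, so a dye effect and its treatment cannot be told apart within its own arrays.

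In array set 2 the ratios also moved with the base composition of the probe, most under G9a siRNA and in UNC0638 replicate 3. Over all tested probes with a sequence, the median ratio in the G9a siRNA replicates was 0.17 and 0.23 for probes under 40% GC and -0.35 and -0.46 for those of 55% and over. In UNC0638 replicates 3, 4 and 5 it went from 0.18, 0.06 and 0.08 to -0.23, -0.07 and -0.12. In array set 1 it ranged from -0.01 to 0.06 over the classes in the WIZ siRNA replicates and from -0.05 to 0.04 in UNC0638 replicates 1 and 2. Of the 14 member probes, 11 have a sequence, at 35% to 51.7% GC. With the trend removed, WNT3A probe 1 under G9a siRNA was at -0.72 (adjusted p = 0.00397), SP5 at -0.75 (adjusted p = 0.00342), AXIN2 probe 1 at 0.53 (adjusted p = 0.0166), DKK1 at 0.49 (adjusted p = 0.0089) and TCF7 probe 1 at -0.39 (adjusted p = 0.00563). NKD1, the member richest in GC, went from -0.08 to 0.31 and was called in neither case (adjusted p = 0.0602 with the trend removed). Under UNC0638 the corrected values were -0.92 for WNT3A probe 1 and -0.64 for SP5.

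**Figure D3:**
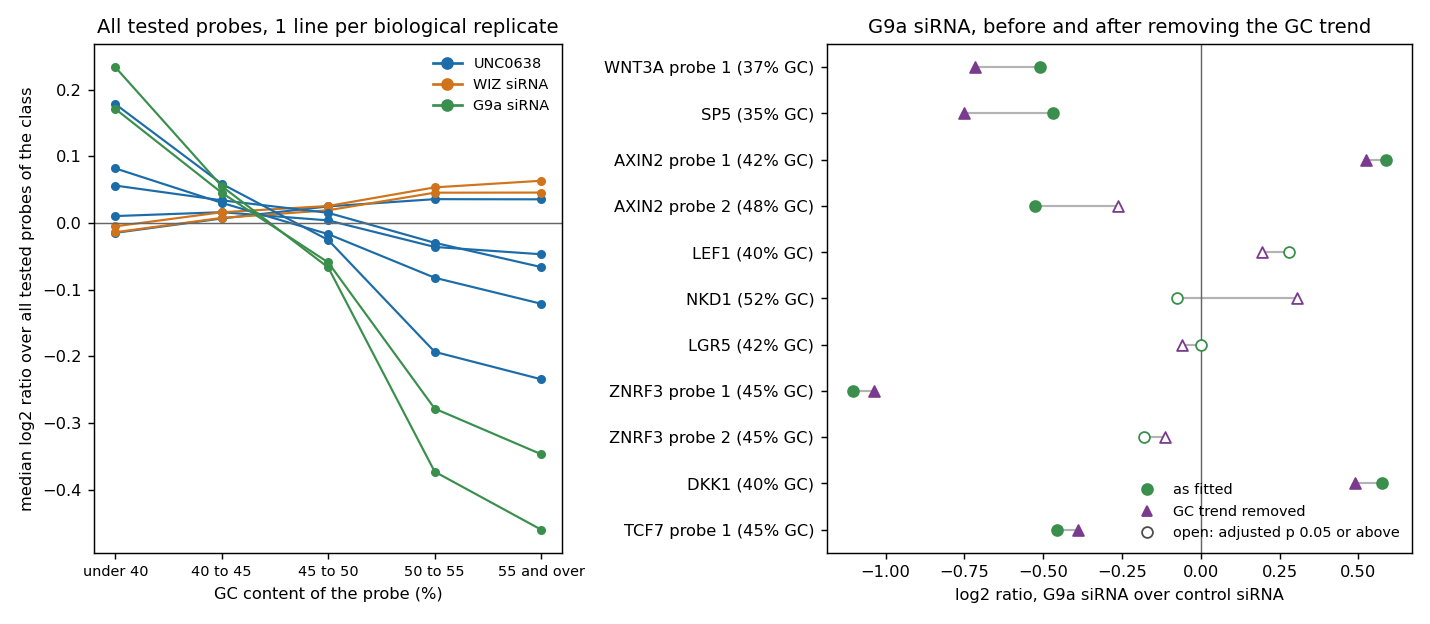
Left, the median log2 ratio (y axis) of all tested probes in 5 classes of probe GC content (x axis), 1 line per biological replicate. Right, the log2 ratio under G9a siRNA (x axis) of the 11 member probes with a sequence, as fitted (circles) and with the trend on GC content removed (triangles), where open symbols have an adjusted p of 0.05 or above. WNT3A probe 1 and SP5 move away from 0, to -0.72 and -0.75, and AXIN2 probe 2 is no longer called.

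The rest of the pathway was read from 118 further genes in 7 lists, of which 110 genes with 143 probes were tested. These lists too were chosen with earlier results of these data known, so their shares are no test of the set. Under UNC0638 1 probe rose and 9 fell, or 6.99% of the 143, against 3.24% of all probes tested. Among the ligands WNT11 (-0.59, SE 0.09, adjusted p = 0.00673; replicates -0.89 to -0.33) and WNT5B (-0.34, adjusted p = 0.0411) fell, which made 2 of 15 tested ligand probes. FZD10, a Frizzled receptor gene, was the 1 of 23 receptor probes called, at -0.41 (SE 0.06, adjusted p = 0.00437; replicates -0.59 to -0.29). TLE2, a Groucho-type corepressor of TCF factors, fell by 0.42 on the log2 scale (adjusted p = 0.0042) and DACT1, a binder of Dishevelled, by 0.33 (adjusted p = 0.0405). Among 37 probes of further target genes, CCND1 (cyclin D1, -0.35, adjusted p = 0.00888), BAMBI (-0.35, adjusted p = 0.0411), FGF9 (-0.26, adjusted p = 0.0487) and CDX2 (-0.21, adjusted p = 0.0334) fell. DKK3, of the secreted inhibitor list, was the 1 gene that rose (0.29, adjusted p = 0.0347), on 1 of its 2 probes. WNT11, FZD10 and TLE2 lost the call under 1 alternative, UNC0638 within array set 1, and CCND1 under that and the dye term, whereas WNT5B, DKK3, DACT1, BAMBI, CDX2 and FGF9 each lost it under at least 14. The count of 10 was 4 without UNC0638 replicate 4 or either WIZ siRNA replicate, 5 without either G9a siRNA replicate, and 6 without UNC0638 replicate 1 or 5.

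Under WIZ siRNA 2 of the 143 probes were called (1.4%, against 0.508% of all probes tested), both lower. CCND1 was at -1.07 and -0.79 in the 2 replicates (mean -0.93, SE 0.09, adjusted p = 0.00235). KREMEN2, a DKK co-receptor gene, was at -0.87 and -0.74 (mean -0.80, SE 0.09, adjusted p = 0.00732). CCND1 was also lower under UNC0638 and G9a siRNA (-0.31, adjusted p = 0.0221), so it was called in each treatment. Its G9a siRNA call was lost without either G9a siRNA replicate, with the dye term and with the array set as a block. The KREMEN2 call was lost without either WIZ siRNA replicate or with the authors' deposited log2 ratio, and that of CCND1 without replicate 1, where the lone replicate is taken to vary like the rest.

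Under G9a siRNA 23 of the 143 probes rose and 37 fell, or 42%, against 33.8% of all probes. Of the ligands 1 rose, WNT5A (0.73, adjusted p = 0.00716), and 4 fell, among them WNT10B (-0.59, adjusted p = 0.00792) and WNT5B (-0.48, adjusted p = 0.0123). PORCN, which acylates Wnt ligands, was the called gene of the secretion list (-0.59, adjusted p = 0.0133). Of 23 receptor probes 7 rose and 6 fell, with the largest changes in FZD2 (-1.37, adjusted p = 0.00315) and FZD6 (1.18, adjusted p = 0.00317). Of 17 inhibitor probes 1 rose and 2 fell, KREMEN1 (-0.68, adjusted p = 0.00695) and KREMEN2 (-0.37, adjusted p = 0.0129). The riser, SFRP4, was not well above background in either channel of either array. Of 25 cytoplasmic probes 5 rose and 7 fell, led by DVL1, a Dishevelled gene (-1.35, adjusted p = 0.0032, on the probe that moved most), CSNK1A1 (casein kinase, 1.10, adjusted p = 0.035) and CSNK1D (-0.94, adjusted p = 0.00397). Of 23 probes for nuclear factors 2 rose and 9 fell, with TLE1 at -0.75 and -0.88 on its 2 probes and BCL9, a β-catenin cofactor gene, at -0.88 (adjusted p = 0.0182). The 37 probes of further target genes split into 7 that rose and 8 that fell. With the GC trend removed FZD2 was at -0.96 and DVL1 at -0.91, both still called, whereas WNT5B was at -0.05 (adjusted p = 0.738), KREMEN1 at -0.24 (adjusted p = 0.0899) and the called TBX3 probe went from -0.92 to -0.05 (adjusted p = 0.741). With the array set as a block WNT10B, WNT5B, PORCN, KREMEN2, CSNK1A1 and BCL9 lost the call, and with the dye term WNT10B, WNT5B, PORCN, KREMEN2, CSNK1D and both TLE1 probes did. CSNK1A1 lost it under 8 of 21 alternatives in all. Without G9a siRNA replicate 2 limma called no probe of the whole array, these 143 included.

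**Figure D4:**
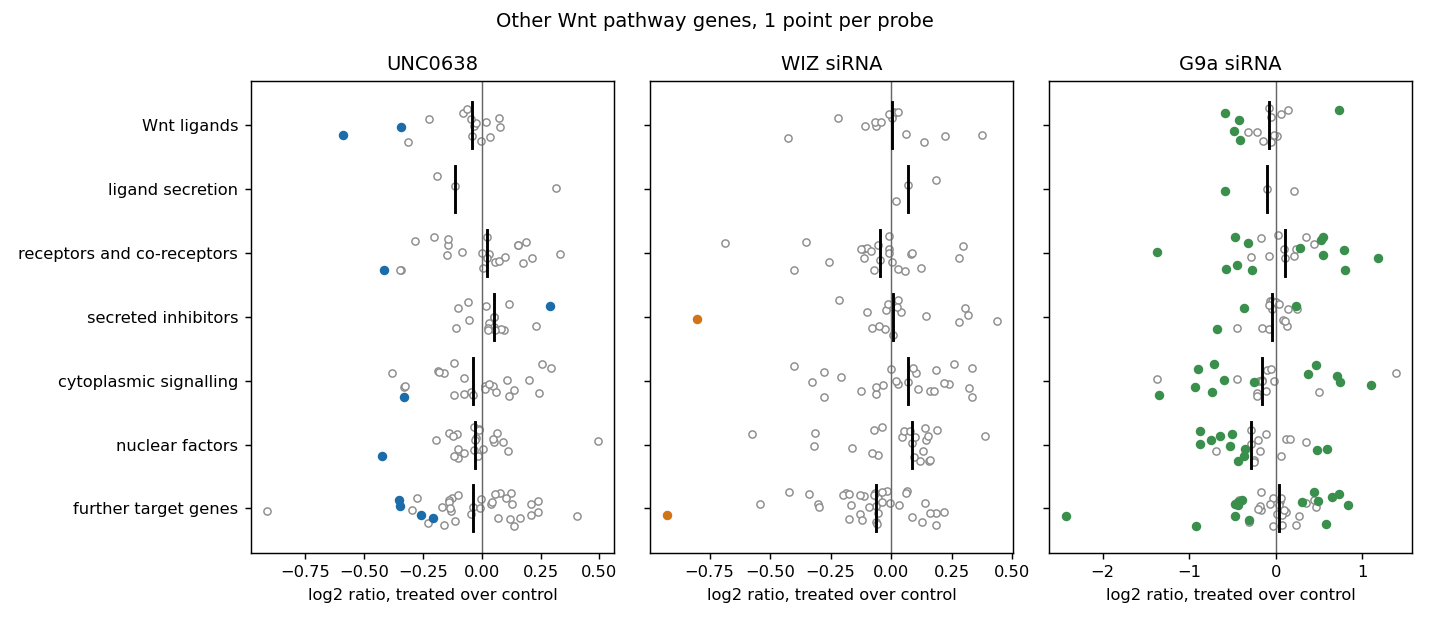
Log2 ratio (treated over control, x axis) of each tested probe of the 7 lists of other Wnt pathway genes (y axis), 1 panel per treatment with its own x scale. Filled points have an adjusted p below 0.05 and black bars mark the list medians. The filled points number 10 under UNC0638, 2 under WIZ siRNA and 60 under G9a siRNA.

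Over the 9 biological replicates, the genes whose ratios ran most like those of WNT3A probe 1 were PLK5P (Pearson r = 0.92), ZNF345 (0.82), ZNF530 (0.79), DCAF16 (0.77) and ZNF738 (0.76), out of 8250 probes with a mean of at least 0.5 in size under some treatment. PLK5P, for example, averaged -0.61 under UNC0638, -0.47 under WIZ siRNA and -0.21 under G9a siRNA. These are descriptions chosen as the highest of many, the replicates of a treatment share its mean, and all points share the array sets. Among the members, LEF1 had r = 0.66 with WNT3A probe 1, SP5 0.09, WNT3A probe 2 0.16 and TCF7 probe 2 -0.81.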

How the data were processed

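Each deposited array file holds mean spot intensity and median local background intensity in Cy3 and Cy5, uncorrected per the file headers, and a normalized log2 ratio that the authors made. A table of the whole series holds log10 ratios that the authors deposited. The submitters' software and the scan batch are not given in the sources used here. Channels were corrected with normexp (offset 50), normalized by loess within arrays (control spots at weight 0), averaged per probe, turned to treated over control by the dye labels, and averaged over swapped pairs. A probe was well above background where its mean exceeded the background median by 2.6 background SDs, and was kept where this held on 50% or more of the arrays of at least 1 RNA group. limma 3.58.1 (lmFit, eBayes; R 4.3.3; 6 residual and 3.28 prior degrees of freedom) fitted 1 mean per treatment over 9 replicates, and was tested on simulated data. The number of arrays limits the precision. A planned slide block became the array set. The members and lists were chosen with earlier results of these data known. Named were every member probe, list genes called under UNC0638 or WIZ siRNA, up to 3 per list with the largest change among those called under G9a siRNA, 5 genes most like WNT3A probe 1, and the siRNA targets. Alternatives covered background, normalization, filter, probe choice, the authors' ratios, dye, array set, GC content, pairing and left-out replicates. The fit with a dye term used the 13 arrays, with the arrays of a replicate as a block (correlation -0.121). A swapped pair thus did not count as 1 replicate in it. Gene symbols of members are those of the files. Promoters are RefSeq's (GRCh38.p14), used with no coordinate carried over from build 37.1.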

Additional observations from a re-analysis of the deposited data

Results flagged for a closer look

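Each result here was picked because the difference between a pair of treatments passed the limma fit's own test of that difference (adjusted p below 0.05 over 34619 probes). SP5 differed by 0.82 for WIZ siRNA minus UNC0638 (means 0.26 and -0.56) and by -0.73 for G9a siRNA minus WIZ siRNA (means -0.47 and 0.26), with 4 of 4 WIZ siRNA arrays above 0 and 9 of 9 other arrays below. How many of all probes split in this way was not counted. DKK1 differed by 0.68 for G9a siRNA minus WIZ siRNA (means 0.58 and -0.11). Its sign followed the dye on every array, and the part of the dye in this difference was not tested beyond the fit with a dye term (0.39, adjusted p = 0.0925). TCF7 probe 2 differed by -0.48 for G9a siRNA minus UNC0638 (means -0.48 and 0.00). None of the 14 member probes had a replicate of UNC0638 far enough from the other 4 to be singled out by Dixon's test (critical value 0.71). The nearest was TCF7 probe 1, whose replicate 3 left a gap of 0.67 of the range.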

How the results depend on the processing

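Counts of called members and of called pathway genes that moved by more than 1.5 times are given here. The authors' log10 table holds 6 of the 14 member probes. Among those it lacks are the called probes of SP5, RNF43, AXIN2 probe 2, ZNRF3 probe 1 and TCF7 probe 2. No called member probe that it holds lost its call there. Under UNC0638 (3 called) it became 1 with the authors' log10 table and 1 and 5 within array sets 1 and 2. Under WIZ siRNA (1 called) it became 0 with median centring and with the authors' log2 ratio, 2 with the dye term and 7 with each treatment on its own replicates. Under G9a siRNA (8 called) it became 4 with the log10 table and 3 with the array set as a block. WIZ siRNA minus UNC0638 (1 called) gave 0 with the authors' log2 ratio, with the log10 table, which lacks SP5, with the array set as a block and within set 1. G9a siRNA minus UNC0638 (1 called) gave 4 with median centring and 0 with the log10 table, the brightest probe per gene, the dye term, the array set as a block, set 2 alone and the GC trend removed. TCF7 probe 2, the probe called, is in neither the log10 table, the brightest probes nor the 11 with a GC value. G9a siRNA minus WIZ siRNA (2 called) gave 1 with median centring and with each of the authors' ratios (the log10 table lacks SP5). With the array set as a block it gave 0, where 2 probes of the whole array were called higher and 0 lower. The other pathway genes under UNC0638 (10 called) gave 5 with median centring and with the log2 ratio, 6 with the log10 table, 4 on its own replicates, and 1 and 21 within sets 1 and 2. Under WIZ siRNA (2 called) they gave 1 with the log2 ratio and with the GC trend removed, 12 with the dye term and 53 on its own replicates, and under G9a siRNA (60 called) 22 with the dye term and 23 with the array set as a block. Beyond such missing probes, the cause of these shifts was not tested. Counts over all 34619 tested probes shifted too. Under WIZ siRNA 22 higher and 154 lower became 316 and 888 with the dye term and 4906 and 3962 on its own replicates. Under UNC0638, 544 and 578 became 175 and 103 within set 1, 1726 and 1633 within set 2, and 338 and 281 without replicate 4. Under G9a siRNA 5202 and 6500 became 2537 and 2746 with the dye term and 2470 and 3110 with the array set as a block. Leaving out 1 replicate at a time gave 0 to 1 called members under WIZ siRNA, 0 to 8 under G9a siRNA and 3 in each case under UNC0638. The same ranges were 0 to 1, 0 to 7 and 0 to 4 for the differences in the order above, and 4 to 8, 0 to 2 and 0 to 69 for the other pathway genes. WIZ under its siRNA ranged from -2.26 to -1.97 (adjusted p = 0.0535 without WIZ siRNA replicate 1) and EHMT2 under G9a siRNA from -1.67 to -1.65 (adjusted p = 0.109 without G9a siRNA replicate 2). Without that G9a siRNA replicate limma called no probe of the array there, with 8664 at an unadjusted p below 0.05, and a lone replicate is taken to vary like the others. Median centring changed the share of higher among called probes from 44.5% to 29.5% under G9a siRNA (3438 higher, 8229 lower) and from 48.5% to 60% under UNC0638 (514 and 342). The replicate numbers did not pair the samples, with correlations of deviations of 0.37 and -0.28 between UNC0638 and G9a siRNA and near 0 otherwise. With the replicate number as a block the counts of called members were 3, 1 and 8, and those of the other pathway genes 9, 2 and 62. No called value changed sign under any alternative. Signal over background limits LGR5 and AXIN2 probe 2 under G9a siRNA, where both channels were not well above it.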

Other observations

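Probes of 1 gene opposed each other under G9a siRNA at several pathway genes, with both called by limma. SP8, a relative of SP5, was at 0.83 (adjusted p = 0.00499) on 1 probe and at -2.43 (adjusted p = 0.011) on the other. ROR1, a Wnt receptor gene, was at -0.28, -0.33 and 0.80 on its 3 probes, each called, and remained called with opposed signs once the GC trend was removed (-0.48, -0.45 and 0.51). ID2 was at -0.44 and 0.72, and at -0.46 and 0.40 with the trend removed. The SP8 probe that read -2.43 under G9a siRNA ranged from -2.54 to -0.03 over the UNC0638 replicates and was at 0.03 in both WIZ siRNA replicates. These genes were singled out after their values were seen, and which transcript forms the probes read was not tested. The ID2 call at -0.44 was lost under 12 of 20 alternatives and the ROR1 call at -0.28 under 12 of 21, the array set as a block among them, which also ended the SP8 call at -2.43. Each of these 7 calls was lost without G9a siRNA replicate 2, as was every other call of the array under that siRNA.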
